A study of Mus musculus with 16 samples.

Results

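The expression of 10 imprinted genes was followed in the quadriceps muscle of mice with and without the myotubularin gene *Mtm1*: *Dlk1*, *Meg3*, *Rian* and *Mirg* of the *Dlk1*-*Dio3* domain, *H19*, *Igf2* and *Cdkn1c* of the distal chromosome 7 cluster, *Snrpn*, *Peg3* and *Grb10*. They were picked by symbol, with earlier results of these data known, and make up 10 of the 41388 genes in the count table. *Rian* has a second table row that holds 0 counts in every library, so the row with counts carries its name throughout. All 10 passed the filter on low counts in all 7 comparisons made.

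The mice were C57BL/6 and the labels give their age as post natal day 36. WT mice and *Mtm1* KO mice ate standard chow, and WT + TAM and *Mtm1* KO + TAM mice ate chow with tamoxifen, a drug that acts on estrogen receptors, at 40 mg/kg per day from day 21. The KO is a germline deletion in *Mtm1*, an X-linked gene for a phosphoinositide phosphatase whose loss causes a severe muscle disease, so every cell of the muscle carries it. Each group has 4 libraries of total quadriceps RNA, 1 per mouse, and 14 of the 16 enter the comparisons: 3 WT, 4 WT + TAM, 3 KO and 4 KO + TAM.

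Depth ran from 25702605 to 29847222 counts per library in those 14. *Mtm1* held 341 to 369 counts in WT, 282 to 459 in WT + TAM, 63 to 76 in KO and 53 to 97 in KO + TAM. The library labelled WT replicate 1 held 74, which goes against its label; it and KO replicate 12 (85 counts) are the 2 left out, and summed CPM of 5 red blood cell markers was 453 and 387 in these 2, against at most 255 in the other 14. Summed CPM of 10 skeletal muscle fiber markers ran from 197000 to 261000 in WT from 209000 to 223000 in WT + TAM, from 115000 to 136000 in KO and from 101000 to 150000 in KO + TAM. Summed CPM of the regenerating fiber markers, 6 of 8 of which are in the table, ran from 59.9 to 76.1 in WT, from 57.4 to 88.4 in WT + TAM, from 208 to 282 in KO and from 174 to 286 in KO + TAM. The library labelled WT replicate 1 had sums of 266000 for the fiber markers and 62.4 for the regenerating fiber markers, at or near the WT ranges, and KO replicate 12 had 137000 and 450.

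Imprinted genes are expressed from only the maternal or only the paternal chromosome, a choice fixed by DNA methylation laid down in the germ line. Many of them set growth before birth and are turned down in muscle after it, and several are raised again when muscle regenerates. Paternally expressed members such as *Igf2* tend to promote growth, while maternally expressed members such as *H19*, *Cdkn1c* and *Grb10* tend to restrain it. The counts add up both alleles of an inbred strain, so they give the output of a gene and not which parental copy made it.

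Expression of *H19*, a non-coding RNA that accumulates in embryonic muscle and falls after birth, far exceeded that of the other members. On the scale of reads scaled by depth and by kilobase of gene (RPKM), which corrects for gene length, *H19* averaged 1440 over the 14 libraries and ranked 37 among all genes in the table. *Cdkn1c*, which encodes the cell cycle inhibitor p57, followed at 46 RPKM and *Igf2*, the fetal growth factor, at 18.4. *Rian* averaged 13.2 RPKM and *Grb10*, an adaptor that dampens insulin and IGF receptor signaling, 12.1. *Peg3* at 7.39, *Meg3* at 6.21 and *Snrpn* at 5.54 RPKM came next, and *Dlk1* at 1.23 and *Mirg* at 1.03 were lowest. Neighbors in this order overlapped in their ranges over libraries, other than *H19* and *Cdkn1c* (lowest *H19* 889, highest *Cdkn1c* 66.5 RPKM) and *Snrpn* and *Dlk1* (lowest *Snrpn* 3.39, highest *Dlk1* 2.12 RPKM). The members differed in how steady they were: the highest library exceeded the lowest by 1.77-fold for *Grb10* and by 12.4-fold for *Mirg* on the scale of normalized counts scaled by depth alone (CPM).

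**Figure D1:**
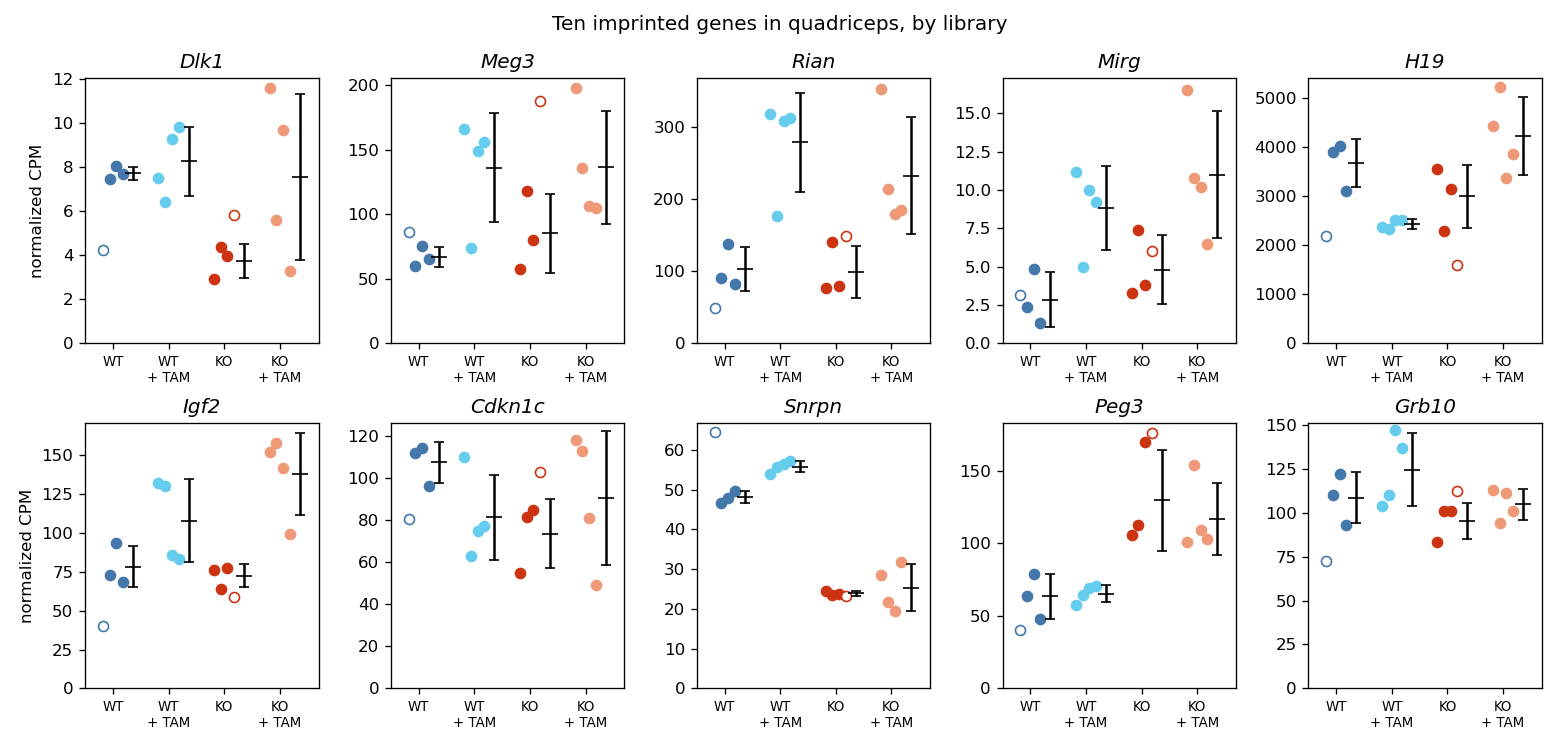
Normalized counts scaled by depth (CPM, vertical axes from 0) of the 10 imprinted genes in every library, by group; filled circles are the 14 libraries compared, open circles the 2 left out, and the black bar and whiskers the group mean and SD of the filled circles. *Snrpn* is lower in every KO and KO + TAM library than in every WT and WT + TAM library, and *Rian* is higher in every tamoxifen library than in every untreated one.

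**Figure D2:**
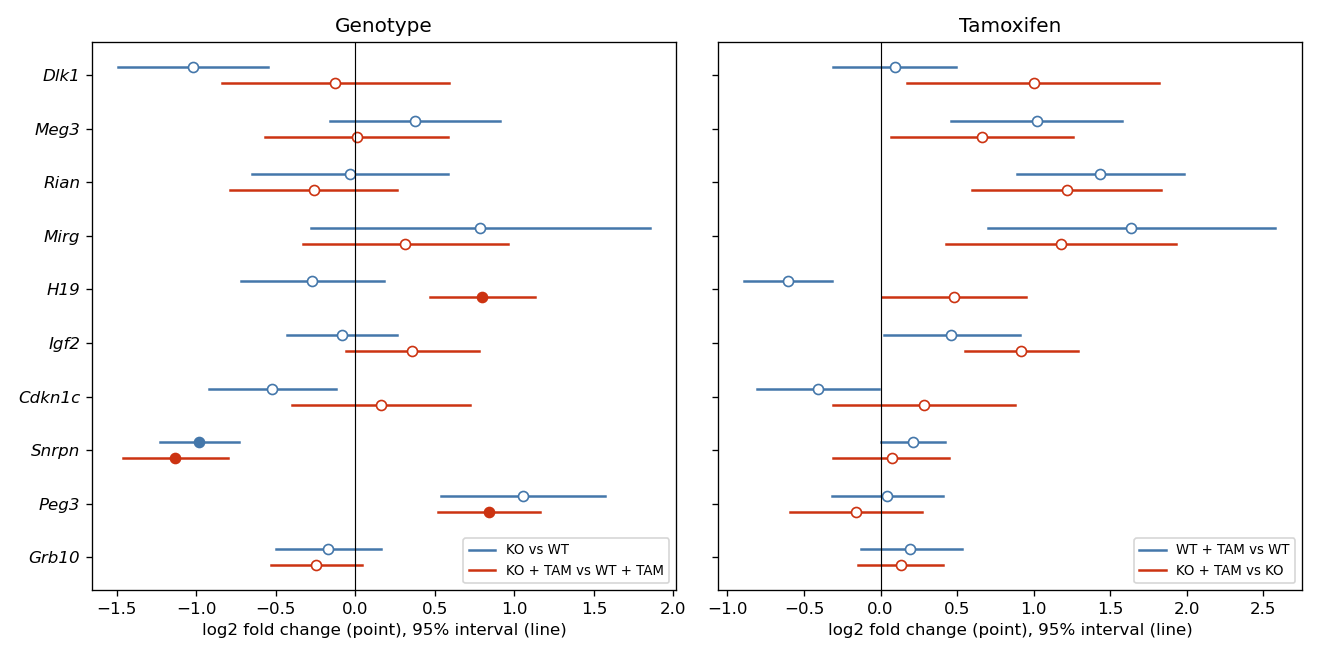
Log2 fold change (points) with the 95% interval (lines) of each gene for KO against WT without and with tamoxifen (left) and for tamoxifen against no tamoxifen in WT and in KO (right); filled points have an adjusted p of at most 0.01. The genotype panel holds 4 filled points, for *Snrpn* in both comparisons and for *H19* and *Peg3* among treated mice, and the tamoxifen panel none.

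The first question was whether loss of *Mtm1* altered the imprinted genes. *Snrpn* fell and *Peg3* rose in KO muscle over both treatments, and *H19* was higher in KO + TAM than in WT + TAM. The other 7 members passed the test in no genotype comparison. *Snrpn* encodes SmN, a core protein of the small nuclear ribonucleoproteins that splice pre-mRNA, and *Peg3* encodes a zinc finger protein found in muscle progenitor cells.

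In the WT libraries *Snrpn* had 46.6, 47.9 and 49.6 CPM, and in the KO libraries 24.6, 23.5 and 23.7. In WT + TAM it had 53.9, 55.6, 56.4 and 57.1 CPM, and in KO + TAM 28.5, 21.7, 19.4 and 31.9. Every KO library, treated or not, lay below every WT library, and the SD within the 3 untreated KO mice was 0.543 CPM. *Snrpn* was 1.97-fold lower in KO than in WT (log2 fold change -0.98, SE 0.11, edgeR quasi-likelihood test with Benjamini-Hochberg adjustment over all genes, adjusted p = 0.00134). Among treated mice it was 2.19-fold lower (log2 fold change -1.13, SE 0.15, edgeR adjusted p = 0.000865). Over both treatments the log2 fold change was -1.08 (SE 0.10, edgeR adjusted p = 1.14e-06), and the test held in all 12, 13 and 19 alternatives tried for these 3 comparisons. The library labelled WT replicate 1 had 64.4 CPM, the highest of all 16, and KO replicate 12 had 23.3, just below the untreated KO libraries compared.

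*Peg3* had 63.6, 79 and 47.6 CPM in WT and 106, 113 and 170 in KO. With tamoxifen it had 57.3, 64.4, 69.5 and 70.6 CPM in WT + TAM and 101, 154, 109 and 103 in KO + TAM. Neither pair of groups overlapped, and the lowest KO or KO + TAM library lay above the highest WT or WT + TAM library. Over both treatments *Peg3* was 1.89-fold higher in KO (log2 fold change 0.92, SE 0.14, edgeR adjusted p = 0.000106). The rise passed the test among treated mice (0.84, SE 0.15, edgeR adjusted p = 0.00345) and missed it among untreated mice (1.05, SE 0.23, edgeR adjusted p = 0.02), where DESeq2, scaling by library size only, a fit of all 4 groups and a fit without a filter on low counts called it.

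*H19* had 3890, 4020 and 3110 CPM in WT, and 3540, 2290 and 3150 in KO. It had 2360, 2330, 2510 and 2510 CPM in WT + TAM, against 4430, 5210, 3360 and 3850 in KO + TAM. Untreated groups overlapped and treated groups did not. Among treated mice *H19* was 1.74-fold higher in KO (log2 fold change 0.80, SE 0.15, edgeR adjusted p = 0.00512), a call that was lost on leaving out any WT + TAM library or KO + TAM replicate 13 or 14, with adjusted p up to 0.0173. Among untreated mice the log2 fold change was -0.27 (95% interval -0.72 to 0.18, edgeR adjusted p = 0.394).

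In all, 1 of 10 members was called in KO against WT, where 3.6% of all genes tested were called. Among treated mice 3 of 10 were called, against 6.72% of all genes, and over both treatments 2 of 10, against 20.2% of all genes. The median log2 fold change of the 10 in KO against WT was -0.13, beside 0.02 for all genes tested and 3 of the 10 had values above 0, beside 52.4% of all genes. Of the 4 paternally expressed members, *Snrpn* fell and *Peg3* rose over both treatments, and of the 6 maternally expressed members none was called there by edgeR, with 1 of them called when only library size was used for scaling.

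*Dlk1*, which encodes an EGF repeat protein related to the Notch ligands, did not pass the test for genotype. It had 7.46, 8.04 and 7.69 CPM in WT and 2.91, 4.39 and 3.95 in KO, and these ranges did not overlap. In WT + TAM it had 7.53, 6.44, 9.29 and 9.81 CPM and in KO + TAM 11.6, 5.62, 9.71 and 3.28, the widest spread of any group for this gene. The untreated difference narrowly missed the threshold (log2 fold change -1.02, SE 0.21, edgeR adjusted p = 0.0162) and was called by DESeq2 (adjusted p = 0.000808). The treated difference was -0.13 (95% interval -0.84 to 0.59), and the test of whether tamoxifen acted differently by genotype gave an unadjusted p of 0.0602 in edgeR (adjusted p = 1). *Cdkn1c* also had no overlap between untreated groups, at 96.2 to 114 CPM in WT, 54.6 to 84.9 in KO, 63 to 110 in WT + TAM and 49.3 to 118 in KO + TAM, and its log2 fold change between KO and WT did not pass the test (-0.52, SE 0.18, edgeR adjusted p = 0.0832). The left-out library labelled WT replicate 1 had 4.23 CPM of *Dlk1* and KO replicate 12 had 5.81, so with them the untreated groups overlapped. *Cdkn1c* had 80.6 CPM in the first and 103 in the second, so its untreated groups overlapped with them too. *Grb10* varied least, from 83.1 to 147 CPM over the 14 libraries, and the 95% interval of its genotype difference over both treatments ran from -0.43 to -0.02 on the log2 scale (edgeR adjusted p = 0.0797).

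*Mtm1* KO muscle differed in the RNA of fiber markers, and in whole muscle fewer cells of a type and less RNA per cell cannot be told apart. By myosin staining of the tibialis anterior, the paper reported no change in fiber type distribution in untreated KO mice. In KO mice on tamoxifen, at low and at high dose, it reported more type 2B fibers and fewer of types 1 and 2A. Over both treatments, where 20.2% of all genes were called, 8 of the 10 skeletal muscle fiber markers fell, among them *Myh4* (log2 fold change -1.28, SE 0.14, edgeR adjusted p = 7.83e-06), the fast fiber myosin. The 2 fiber markers that did not fall had values above 0 and were not called by edgeR. All 10 had an unadjusted p under 0.05 in edgeR, and DESeq2 called 9. Over all genes 6809 of 15556 had such a p there and DESeq2 called 3976 of 17990. *Pvalb* was 2-fold lower, and the change was -0.89 for *Ckm*, -0.83 for *Atp2a1*, -0.77 for *Tnnt3*, -0.65 for *Acta1* and -0.62 for *Tnni2* on the log2 scale. Of 6 regenerating fiber markers tested, 5 rose, led by the embryonic myosin *Myh3* (3.57, SE 0.36, edgeR adjusted p = 2.83e-06), with *Chrng* at 2.55, *Myh8* at 2.13, *Myog* at 1.62 and *Ncam1* at 1.61. Of 8 satellite cell markers, 3 fell and 1 rose, and *Pax7*, which defines these stem cells, fell by 1.32 (edgeR adjusted p = 0.000193), *Fgfr4* by 1.33, and *Sdc4* rose by 0.64. *Calcr* is also counted among the falls, but it passed the filter through the WT groups alone and is not read as a result. Fibroblast markers rose in 3 of 8 cases, macrophage markers in 1 of 5, Schwann cell and nerve markers in 1 of 6, and endothelial markers fell in 1 of 7. The shares of the last 3 lists are near or below the background, and 0 of 7 fat cell and 0 of 5 red blood cell markers were called by edgeR, had an unadjusted p under 0.05 or were called by DESeq2. No listed marker that was in the table stood at 0 in all 14 libraries. The part of these marker values in the *Snrpn*, *Peg3* and *H19* results was not tested.

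The second question was whether tamoxifen altered the imprinted genes. *Rian* rose with tamoxifen over both genotypes, and its neighbors *Meg3* and *Mirg* had higher values that missed the threshold of 0.01, as did *Igf2*. All 3 non-coding RNAs are made from the maternal chromosome in 1 direction across the *Dlk1*-*Dio3* domain, which spans 828 kb of chromosome 12. *Rian* hosts small nucleolar RNAs and *Mirg* a long run of microRNAs, whereas *Meg3* is studied as a growth-restraining long non-coding RNA.

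*Rian* had 90.4, 138 and 82 CPM in WT and 319, 177, 309 and 313 in WT + TAM. It had 77.5, 141 and 79.6 CPM in KO and 353, 214, 180 and 185 in KO + TAM. All 8 tamoxifen libraries lay above all 6 untreated ones, and WT + TAM replicate 6 was the lowest of the treated. *Rian* was 2.51-fold higher with tamoxifen over both genotypes (log2 fold change 1.33, SE 0.20, edgeR adjusted p = 0.00297). Without WT replicate 2 the adjusted p was 0.0133 and without WT replicate 4 it was 0.0117, at log2 fold changes of 1.28 and 1.25. Each genotype by itself gave a like size, 1.43 (SE 0.24, edgeR adjusted p = 0.0388) in WT and 1.22 (SE 0.28, edgeR adjusted p = 0.206) in KO. With all 16 libraries the value over both genotypes was 1.35 (edgeR adjusted p = 0.00564).

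*Mirg* had 2.4, 4.83 and 1.33 CPM in WT, 11.2, 4.95, 9.97 and 9.22 in WT + TAM, 3.27, 7.37 and 3.79 in KO, and 16.5, 10.8, 10.2 and 6.46 in KO + TAM. *Meg3* had 59.7, 75.6 and 65.5 CPM in WT, 166, 73.5, 149 and 156 in WT + TAM, 57.8, 118 and 80.1 in KO, and 198, 136, 106 and 105 in KO + TAM. In both genes WT + TAM replicate 6 was the lowest WT + TAM library and KO + TAM replicate 13 the highest of all 14. Over both genotypes the log2 fold change with tamoxifen was 1.40 for *Mirg* (SE 0.30, edgeR adjusted p = 0.0237) and 0.85 for *Meg3* (SE 0.20, edgeR adjusted p = 0.0457). KO replicate 12, which was left out, had 188 CPM of *Meg3* without tamoxifen, above every treated library but 1.

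*Igf2* had 73, 93.4 and 68.4 CPM in WT and 132, 130, 85.9 and 83.5 in WT + TAM. It had 76.2, 64.1 and 77.3 CPM in KO and 152, 158, 142 and 99.6 in KO + TAM. The groups overlapped in WT mice and did not in KO mice. The log2 fold change with tamoxifen was 0.92 in KO (SE 0.17, edgeR adjusted p = 0.125) and 0.69 over both genotypes (SE 0.15, edgeR adjusted p = 0.0256).

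Over both genotypes 1 of 10 members was called, where 0.476% of all genes tested were called, and the median log2 fold change of the 10 was 0.35 beside 0 for all genes. In KO + TAM against KO edgeR called 0 of 10 members and 0% of all genes, with 6 of 10 at an unadjusted p under 0.05 and 2 called by DESeq2, *Igf2* and *Rian*. Over all genes 1137 of 15062 had such a p there and DESeq2 called 68 of 14970. In WT + TAM against WT edgeR called 0 of 10 members and 0.131% of all genes, with 7 of 10 at an unadjusted p under 0.05 and 4 called by DESeq2, *H19*, *Meg3*, *Mirg* and *Rian*. Over all genes 1549 of 14544 had such a p there and DESeq2 called 208 of 17118. These comparisons share untreated or treated groups with the genotype comparisons. No gene in the cell type marker lists was called by edgeR for tamoxifen over both genotypes. Of 6 regenerating fiber markers, 3 had values above 0 and 3 below, and DESeq2 called 1, *Myh8*. It averaged 4.1 CPM in WT, 11.7 in WT + TAM, 24.5 in KO and 41.5 in KO + TAM. The 7 endothelial markers all had values below 0, with a median log2 fold change of -0.32, 4 at an unadjusted p under 0.05 and 2 called by DESeq2, and their summed CPM ran from 314 to 467 in WT, 250 to 323 in WT + TAM, 251 to 366 in KO and 198 to 299 in KO + TAM. Over all genes 2194 of 15556 had an unadjusted p of at most 0.05 in edgeR for tamoxifen over both genotypes, and DESeq2 called 300 of 17529. The part of *Myh8* and of the endothelial markers in the tamoxifen results was not tested.

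*H19* took opposite signs with tamoxifen. Its log2 fold change was -0.60 in WT (SE 0.13, edgeR adjusted p = 0.083) and 0.48 in KO (SE 0.21, edgeR adjusted p = 0.642). The difference between these, 1.10 (SE 0.24), had an unadjusted p of 0.000401 and an adjusted p of 0.347 in edgeR's test of the interaction, where 0% of all genes were called. It was the sole member of 10 with an unadjusted p under 0.05 there, and DESeq2 called it at an adjusted p of 0.00781. Over all genes 664 of 15556 had such a p there and DESeq2 called 12 of 14284. All 7 fat cell markers had interaction values below 0, opposite in sign to *H19* (median -1.12), 1 of them at an unadjusted p under 0.05, and their summed CPM ran from 278 to 1910 in WT, 785 to 3070 in WT + TAM, 1050 to 1880 in KO and 998 to 1480 in KO + TAM. Their part in the *H19* result was not tested. Of the other members, *Snrpn* and *Peg3* did not pass the test for tamoxifen, at 0.15 (95% interval -0.06 to 0.35) and -0.05 (95% interval -0.34 to 0.24) over both genotypes.

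**Figure D3:**
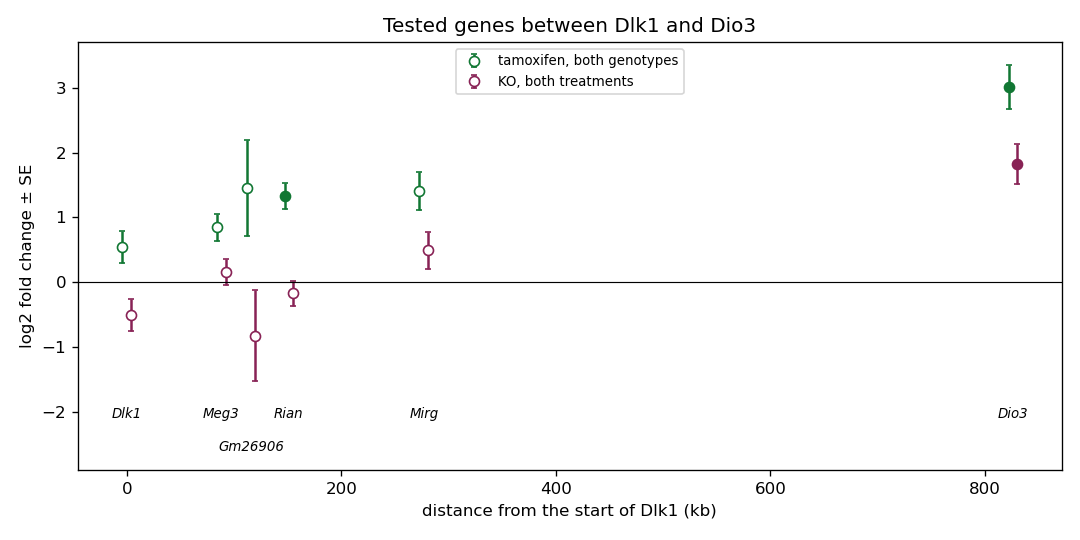
Log2 fold change (vertical axis, points, with SE as whiskers) of the 6 genes tested between the start of *Dlk1* and the end of *Dio3*, against distance from the start of *Dlk1* in kb, for tamoxifen over both genotypes and for KO over both treatments; filled points have an adjusted p of at most 0.01. The tamoxifen points of *Dlk1*, *Meg3*, *Rian* and *Mirg* lie above 0, from 0.54 at *Dlk1* to 1.40 at *Mirg*. Those of *Gm26906* and *Dio3* also do, but both passed the filter through tamoxifen groups, so they are a description, also where filled.

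The *Dlk1*-*Dio3* domain was then read from end to end. Of the 95 table rows that GENCODE vM21 places there, 6 were tested: *Dlk1*, *Meg3*, *Gm26906* on the opposite strand within *Meg3*, *Rian*, *Mirg* and *Dio3*. *Dio3*, at the far end, encodes the deiodinase that inactivates thyroid hormone, and it is expressed mainly from the paternal chromosome. It had 3 to 4 counts per library in WT, 11 to 19 in WT + TAM, 5 to 10 in KO and 49 to 131 in KO + TAM. *Dio3* passed the filter through the tamoxifen groups, where its counts were high, and was not tested in KO against WT. Its log2 fold change with tamoxifen over both genotypes (3.01, SE 0.34) is therefore given as a description. *Gm26906* was tested neither in KO against WT nor in KO + TAM against KO. It passed through WT + TAM and is read likewise. Between the treated groups, which both passed the filter, *Dio3* was 4.47-fold higher in KO + TAM (log2 fold change 2.16, SE 0.34, edgeR adjusted p = 0.00204). The 59 microRNA rows of the domain held 191 counts over the 14 libraries and the 23 small nucleolar RNA rows 53, so these libraries say nothing on the mature small RNAs.

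Of 8 listed neighbors of this domain 7 were tested, and 2 were called higher in KO over both treatments, where 20.2% of all genes were called. They were *Begain* (log2 fold change 1.22, SE 0.23, edgeR adjusted p = 0.000689) and *Dio3*. The *Dio3* call is not read as a result, because the gene passed the filter through the tamoxifen groups. *Dio3os*, which is antisense to *Dio3* and whose table identifier is not in vM21, had 5 to 7 counts per library in WT, 5 to 30 in WT + TAM, 8 to 17 in KO and 20 to 42 in KO + TAM, with a log2 fold change with tamoxifen of 1.33 (SE 0.38, edgeR adjusted p = 0.0957). *Rtl1*, the paternally expressed gene that the microRNA strand opposes, had 0 to 6 counts per library and was not tested.

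*Meg3* lies at chr12:109541001-109571726 on the plus strand and *Rian* at chr12:109603940-109661716, with *Mirg* beyond them at chr12:109729764-109749460 and *Dlk1* before them at chr12:109452823-109463336 (GRCm38, GENCODE vM21). RefSeq promoter windows, 250 bases before to 50 after each start, were found for 8 of the 10 members at 16 start sites. The cAMP response element TGACGTCA, searched on both strands, stood in 1.79% of all 32851 promoters and in 2 of the 16, 1 in *Meg3* and 1 in *Peg3*. The palindromic estrogen response element with a spacer of any 3 bases, searched likewise, stood in 0.07% of all promoters and in none of the 16, nor in the *Dio3* window. The 2 windows with the element are shown 5′ to 3′ from RefSeq (GRCm38.p6), with the element in capitals, since *Meg3* heads the RNAs that were higher with tamoxifen and *Peg3* rose in KO. The *Meg3* window is chr12:109540746-109541045, plus strand, and its element begins 57 bases before the start; the *Peg3* window is chr7:6730370-6730669, minus strand, and its element begins 178 bases before the start.
Meg3 promoter: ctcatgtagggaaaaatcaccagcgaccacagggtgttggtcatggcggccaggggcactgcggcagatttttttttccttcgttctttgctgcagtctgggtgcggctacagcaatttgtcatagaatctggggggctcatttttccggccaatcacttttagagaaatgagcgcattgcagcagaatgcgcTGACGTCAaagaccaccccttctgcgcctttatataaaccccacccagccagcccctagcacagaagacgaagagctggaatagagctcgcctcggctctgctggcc
Peg3 promoter: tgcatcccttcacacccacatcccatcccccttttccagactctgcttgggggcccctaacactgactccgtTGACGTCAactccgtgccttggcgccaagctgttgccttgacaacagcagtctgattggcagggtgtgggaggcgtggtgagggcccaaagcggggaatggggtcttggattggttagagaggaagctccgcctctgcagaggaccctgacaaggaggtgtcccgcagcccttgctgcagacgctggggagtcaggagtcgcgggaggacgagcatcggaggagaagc
The *Rian* window holds 0 CG dinucleotides, the first *Meg3* window 13, the second 1 and the *Mirg* window 10, beside a median of 7 over all promoters and 45 in the first *Grb10* window. The *Mirg* window, chr12:109734731-109735030, lies inside the GENCODE span of *Mirg*, which starts at 109729764. It may therefore not be the start of the transcript that was counted.

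MicroRNA hairpins of the RefSeq table lie in the same direction inside 5 members, 14 in *Mirg*, 3 in *Rian* and 1 each in *Meg3*, *H19* and *Igf2*. In *Meg3* that hairpin is *Mir770*, and GENCODE vM21 places *Mir1906-1* there as well. RefSeq gives 26 mature microRNAs within *Mirg*, and only miR-453 and miR-496a-5p of them share a seed, the bases 2 to 8 that pair with targets. Those 2 and 4 others from *Mirg*, the 3′ product of the *Rian* hairpin miR-370, and the products of the *H19* and *Igf2* hairpins are shown with the seed in capitals, because *Mirg* and *Rian* had the highest log2 fold changes with tamoxifen among the members and *H19* and *Igf2* are a reciprocally imprinted pair.
miR-453: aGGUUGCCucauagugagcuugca
miR-496a-5p: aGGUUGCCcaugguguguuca
miR-382-5p: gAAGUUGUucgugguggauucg
miR-134-5p: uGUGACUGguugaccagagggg
miR-409-3p: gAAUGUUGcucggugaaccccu
miR-410-3p: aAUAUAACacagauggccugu
miR-370-3p: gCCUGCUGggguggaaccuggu
miR-675-5p: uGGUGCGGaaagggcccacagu
miR-675-3p: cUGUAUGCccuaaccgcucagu
miR-483-5p: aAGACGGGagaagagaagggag
miR-483-3p: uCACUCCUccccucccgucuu
The host counts give the level of the long transcript and not of these products.

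*H19* lies at chr7:142575529-142578143, *Igf2* at chr7:142650766-142666816 and *Cdkn1c* at chr7:143458339-143461050, all on the minus strand. Of 17 listed neighbors in this cluster 14 were tested, and over both treatments 6 rose, *Th* among them, and 2 fell in KO, where 20.2% of all genes were called. *Tnfrsf23*, a decoy receptor gene of the *Kcnq1* domain, averaged 8.75 ± 0.912 CPM in WT (SD, n = 3) and 37.9 ± 6.1 in KO (SD, n = 3), with a log2 fold change of 2.14 (SE 0.16, edgeR adjusted p = 0.000228). Among treated mice its log2 fold change was 2.16 (SE 0.24, edgeR adjusted p = 0.000342). *Th*, the tyrosine hydroxylase gene next to *Igf2*, had 0 to 3 counts per library in WT, 2 to 7 in WT + TAM, 27 to 114 in KO and 29 to 300 in KO + TAM, and since it passed the filter through the KO groups alone its call is not read as a result. *Kcnq1ot1*, the paternal non-coding RNA that silences the *Cdkn1c* side of the cluster, rose over both treatments by a log2 fold change of 0.86 (SE 0.16, edgeR adjusted p = 0.000688), whereas *Cdkn1c* itself did not pass the test (-0.14, 95% interval -0.56 to 0.27). For tamoxifen 0 of the 14 were called by edgeR, 2 had an unadjusted p under 0.05 and DESeq2 called 0. Over all genes 2194 of 15556 had such a p for tamoxifen in edgeR. Smaller rises were those of *Osbpl5* (0.57) and *Cd81* (0.43). The neighbors that fell in KO were *Tnnt3*, a fast fiber troponin, and *Nap1l4*.

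*Snrpn* is carried in the table by an identifier that GENCODE vM21 gives to *Gm38393*, a read-through transcript at chr7:59974149-60005064 on the minus strand across *Snrpn* and *Snurf*, whose own vM21 identifiers are not rows of the table. The length implied by its RPKM values, 6831 bases, differs from the 5216 exonic bases of that identifier, so which exons were counted cannot be read from this annotation. For *Dlk1*, *Meg3*, *Igf2* and *Grb10* the implied length matched the annotated one to the base. Over both treatments 6809 of all 15556 genes tested had an unadjusted p of at most 0.05 in edgeR, and DESeq2 called 3976 of 17990. Of 5 tested neighbors of *Snrpn*, 0 were called by edgeR there, 3 had an unadjusted p under 0.05 and DESeq2 called 1. That gene, *Ndn*, the nearby paternally expressed necdin gene, had a log2 fold change of 0.31 over both treatments (SE 0.09, edgeR adjusted p = 0.0111), opposite in sign to *Snrpn*. *Peg3* lies at chr7:6703892-6730431 and *Grb10* at chr11:11930508-12038683, both on the minus strand. Of the 1 tested neighbor of *Peg3* and the 5 of *Grb10*, edgeR and DESeq2 called 0 over both treatments, with 0 and 2 at an unadjusted p under 0.05. Reads on the opposite strand could not be separated for *H19*, *Igf2*, *Meg3* and *Cdkn1c*, which other genes overlap on that strand, because the strand setting is not given in the sources used here.

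Among 27 other imprinted genes tested, 3 rose and 2 fell in KO over both treatments, a share of calls near the 20.2% of all genes, and 0 were called by edgeR or DESeq2 for tamoxifen, with 4 at an unadjusted p under 0.05. Over all genes 2194 of 15556 had such a p for tamoxifen in edgeR, so this share is near the background. *Ampd3*, an AMP deaminase, rose (log2 fold change 1.39, SE 0.18, edgeR adjusted p = 3.2e-05), as did *Tfpi2* and *Peg10*. *Slc38a4*, an amino acid transporter, fell (-1.42, SE 0.23, edgeR adjusted p = 0.000214). *Calcr*, the calcitonin receptor and also a satellite cell marker, was the other call, with 31 to 42 counts per library in WT and 12 to 31 in WT + TAM, against 0 to 3 in KO and 2 to 12 in KO + TAM. *Calcr* passed the filter through the WT groups alone, so its call is not read as a result.

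Genes that act with the members were read in the same way. Of 17 genes in the IGF and insulin pathway, 1 rose and 2 fell in KO and 1 fell with tamoxifen. This and the counts that follow stand beside 20.2% of all genes called for genotype and 0.476% for tamoxifen, and the IGF and Notch shares for genotype are near that background. The gene that rose was *Igfbp2* (log2 fold change 2.79). *Igfbp5*, a binding protein that holds IGFs outside the cell, averaged 742 ± 173 CPM in WT, 388 ± 86.6 in WT + TAM, 455 ± 101 in KO and 249 ± 28.9 in KO + TAM (SD, n = 3 without and 4 with tamoxifen). *Igfbp5* fell by 0.90 on the log2 scale with tamoxifen (SE 0.14, edgeR adjusted p = 0.00273), while *Igf2* had the higher values given above. For tamoxifen over both genotypes 7 of the 17 had an unadjusted p under 0.05 in edgeR, and DESeq2 called 3. Over all genes 2194 of 15556 had such a p and DESeq2 called 300 of 17529. The 3 IGF genes were *Igfbp5*, *Igf1* (log2 fold change -0.61, SE 0.15, edgeR adjusted p = 0.0472) and *Igf1r* (0.71, SE 0.17, edgeR adjusted p = 0.0503). Of 6 other cyclin-dependent kinase inhibitors, relatives in function of *Cdkn1c*, *Cdkn1a* rose 8.3-fold in KO (log2 fold change 3.05, SE 0.24, edgeR adjusted p = 3.09e-07) and *Cdkn1b* fell by 0.49 (edgeR adjusted p = 0.000767). Of 13 genes in the Notch pathway, to which *Dlk1* is related, 2 rose and 1 fell in KO, with the target gene *Hes1* at 1.01 (SE 0.19, edgeR adjusted p = 0.0009). The other rise was that of *Dlk2*, which passed the filter through the KO groups alone, so its call is not read as a result. Of 13 genes for the upkeep of imprints, 4 fell in KO, which were *Dnmt3a*, *Tet1*, *Tet2* and *Tet3*, with log2 fold changes from -0.72 to -0.28, and 0 were called by edgeR or DESeq2 for tamoxifen, with 3 at an unadjusted p under 0.05. These 4 add or remove DNA methylation, which was not measured.

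**Figure D4:**
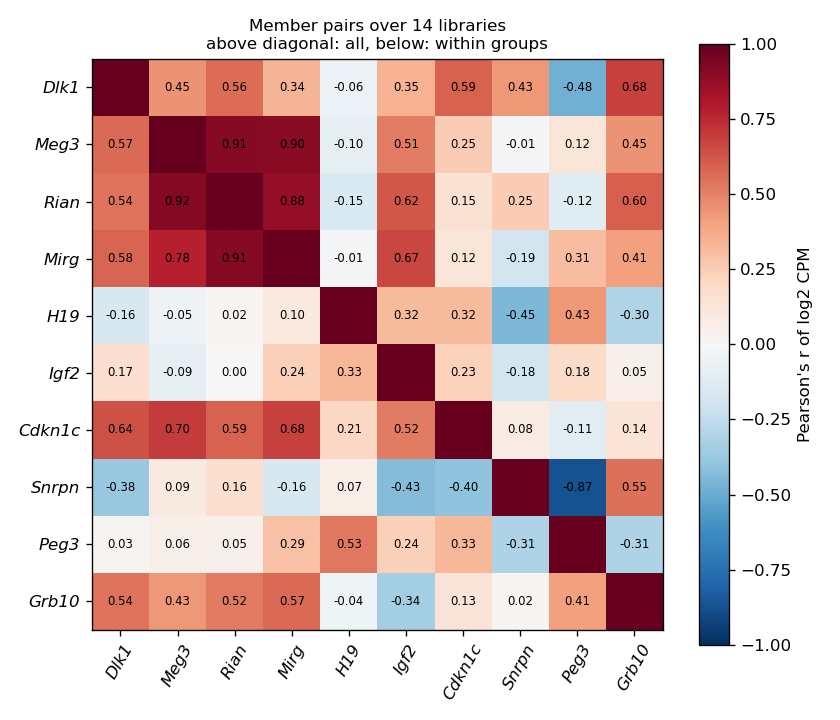
Pearson's r of log2 CPM for each pair of the 10 genes over 14 libraries; values above the diagonal use the libraries as they are, and values below it use deviations from each group's mean. The block of *Meg3*, *Rian* and *Mirg* holds the highest values on both sides, from 0.78 to 0.92, while *Snrpn* and *Peg3* go from -0.87 to -0.31.

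The 3 non-coding RNAs of the *Dlk1*-*Dio3* domain varied together from mouse to mouse. Over the 14 libraries r of log2 CPM was 0.91 for *Meg3* and *Rian*, 0.90 for *Meg3* and *Mirg* and 0.88 for *Rian* and *Mirg*. After each group's mean was taken away these became 0.92, 0.78 and 0.91, so the pairs also moved together within groups. *Dlk1*, in the same domain but on the other parental chromosome, had an r of 0.34 to 0.56 with the 3, and 0.54 to 0.58 within groups. *Cdkn1c*, on chromosome 7, had an r of 0.12 to 0.25 with the 3, and 0.59 to 0.70 within groups. Variation shared with the 3 was thus not confined to the domain. *Igf2* and *H19*, which share enhancers and are expressed from opposite alleles, had an r of 0.32, and 0.33 within groups. For *Igf2* and *Cdkn1c* these were 0.23 and 0.52. *Snrpn* and *Peg3*, the genotype-linked pair, had an r of -0.87 that shrank to -0.31 within groups. These values are a description over 14 libraries that share group and depth differences.

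By the same measure, *Rian* was the gene second most like *Meg3* among the 15556 tested (r = 0.91), after *D730003I15Rik* (0.92), with *Otub1* (0.91) next. *Meg3* was the gene most like both *Rian* (followed by *Trabd* and *D730003I15Rik*) and *Mirg* (followed by *Csnk1d* and *Tmem106c*). For *Snrpn* the closest were *Ccdc6* (0.98), *Egln1* (0.98) and *Smarcd3*, and for *Peg3* *Pkp3* (0.95), *Ttll12* and *Fam104a*. The closest to *Igf2* were *Rbm3* (0.91), *Rbm10* and *Gm26879*, and to *H19* *Tceal1* (0.85), *Rpsa-ps12* and *Ccdc90b*. The closest to *Dlk1* were *Gm17122* (0.91), *Cystm1* and *Mapk12*, to *Cdkn1c* *Ing2* (0.90), *Bola1* and *Park7*, and to *Grb10* *Uts2r* (0.89), *Sox8* and *Zfp653*.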

How the data were processed

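RNA from the quadriceps of 16 mice was sequenced by the authors after TruSeq library preparation. The deposited counts are raw reads per gene, which the study's methods describe as STAR alignments counted with HTSeq, and the deposited RPKM values are those reads scaled by depth and gene length. Per the submitters' processing notes the build was GRCm38 with STAR 2.5.0c. No source used here gives the annotation release, strand setting or counting mode. Counts were fitted with edgeR 4.0.16 (R 4.3.3): TMM scaling, filterByExpr (minimum count 10, minimum total 15), quasi-likelihood F test and Benjamini-Hochberg adjustment over all genes tested, called at 0.01. Following the study's methods, 14 libraries entered pairwise fits, and additive and interaction fits over all 4 groups were added. The paper's text gives the group sizes, but it neither names the libraries left out nor gives a reason. DESeq2 1.42.0, other scalings, filters and library sets are alternatives. Estimates were tested on simulated counts. Labels give 1 library per mouse but no litter or batch.

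The members and gene lists (locus neighbors, other imprinted genes, imprint upkeep, IGF, Notch, cyclin-dependent kinase inhibitors, cell types) were chosen with earlier results of these data known. The text names the 10 members, the listed genes called in a pairwise or genotype fit (the 30 with the lowest p, of 48), and the 3 genes most correlated with each member. *Igfbp5*, *Igf1*, *Igf1r*, *Dio3os*, *Rtl1*, *Ndn*, *Gm26906*, *Peg10*, *Nap1l4*, *Dlk2*, *Dnmt3a*, *Tet1*, *Tet2* and *Tet3* fall outside that rule and were chosen after their values were seen.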

Additional observations from a re-analysis of the deposited data

Results flagged for a closer look

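In 4 cases a library stood apart from the other 3 of its group by Dixon's test, out of 40 groups of 4 tested, where chance alone gives about 1 in 20. *Rian* in WT + TAM replicate 6 was low, at 177 CPM against 309 to 319 in the other 3, with a gap of 0.93 of the group's range. *Peg3* in KO + TAM replicate 14 was high, at 154 CPM against 101 to 109, with a gap of 0.849. *Dlk1* in the library labelled WT replicate 1 was low, at 4.23 CPM against 7.46 to 8.04, with a gap of 0.848, and *Snrpn* in the same library was high, at 64.4 against 46.6 to 49.6, with a gap of 0.83. That library also held 74 counts of *Mtm1*, within the range of the KO + TAM libraries, while its *Snrpn* level was the farthest of all 16 from theirs. It was not among the 14 libraries compared.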

How the results depend on the processing

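Of 1080 refits of a member in a comparison, none turned the direction of a call, 8 lost a call and 21 gained one. In 38 more a value that was not called changed sign, 23 on leaving out a library, 10 with scaling by library size only and 5 with all 16 libraries. With all 16 these were *Rian* (0.34), *Igf2* (0.03) and *Grb10* (0.02) in KO against WT, *Rian* over both treatments (0.03) and *H19* with tamoxifen (0.11). In KO against WT the 1 called member became 3 with DESeq2, 3 without a filter, 3 at an adjusted p of 0.05, 2 with library size only and 2 in a fit of all 4 groups. In KO + TAM against KO, 0 became 2 with DESeq2. In WT + TAM against WT, 0 became 4 with DESeq2, 1 without a filter and 1 at 0.05, and leaving out each library gave 0 to 1, with *Meg3* called without WT + TAM replicate 6 (adjusted p = 0.00432). For tamoxifen over both genotypes, 1 became 4 with DESeq2, 3 without a filter and 4 at 0.05, and leaving out each library gave 0 to 1. The interaction went from 0 to 1 with DESeq2. In KO + TAM against WT + TAM leaving out each library gave 2 to 3 members. The cause of these changes was not tested. Scaling by library size only moved the median of all genes from 0.02 to 0.33 in KO against WT, from -0.01 to 0.27 among treated mice and from 0 to 0.31 over both treatments. The higher calls went with it from 282 of 531 to 1023 of 1163, from 498 of 979 to 1657 of 1874 and from 1468 of 3137 to 4639 of 5212. Over all genes, KO against WT gave 1630 calls with DESeq2, 1096 without a filter, 987 in a fit of all 4 groups, 211 with all 16 libraries and 182 to 363 on leaving out each library. DESeq2 called 1931 among treated mice (edgeR 979), 68 in KO + TAM against KO (edgeR 0), 208 in WT + TAM against WT (edgeR 19), 300 for tamoxifen (edgeR 74) and 12 for the interaction (edgeR 0). Without a filter edgeR called 12, 81 and 132 in KO + TAM against KO, in WT + TAM against WT and for tamoxifen. By CPM rather than RPKM *Rian* ranked 2 and *Cdkn1c* 7 among the members. The study describes the mice as littermates, but the labels give no litter and the groups share no replicate numbers, so no paired analysis was possible.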
